A study of Mus musculus with 10 samples.

Results

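Transcripts of the EGF family, of hepatocyte growth factor and of their receptors were followed across 5 cell populations taken by FACS sorting out of adult mouse lung mesenchyme. The set was fixed by name and held 10 genes, the ligands Hbegf, Areg, Ereg, Tgfa, Nrg1 and Hgf and the receptors Met, Egfr, Erbb2 and Erbb3. Rows of the deposited tables were matched to 9 of them through their Ensembl identifiers, out of 14854 genes in all, and Areg was not analysed here. RNA-seq had been done on 10 libraries, 2 for each population. Axin2:Pdgfra cells carried both the Axin2CreERT2 lineage label (tdT) and the PdgfraEGFP reporter, Axin2 cells only tdT, Pdgfra cells only EGFP, and Negative cells neither, all from mice of the genotype Axin2CreERT2:tdT:PdgfraEGFP. Wnt2 cells came from a separate line, Wnt2CreERT2:R26REFYP, so that line and lineage cannot be told apart for that group. CreERT2 is a recombinase activated by tamoxifen, and its label stays in the marked cells and their descendants. It is therefore a record of Axin2 or Wnt2 expression at the time of labelling, not of the level at the sort. How long before the sort the label was induced is not given in the sources used here. Nor is it given whether a group's 2 libraries derive from different animals. The p-values below therefore measure only the spread between these libraries, which may be technical. For Wnt2 and Negative cells, the Xist levels below differ too widely within the group for repeats of 1 RNA sample.

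EGF family ligands are made as membrane-bound precursors and are released by metalloproteases of the ADAM family. Hbegf, Areg, Ereg and Tgfa bind the receptor tyrosine kinase EGFR, Hbegf and Ereg also ERBB4, and neuregulin 1 (Nrg1) binds ERBB3 and ERBB4. ERBB2 has no known ligand of its own and serves as the preferred partner of the other family members, while ERBB3 has very weak kinase activity and depends on such a partner. Hepatocyte growth factor (Hgf) is typically made by mesenchymal cells and acts on MET, which in the lung is known mainly from epithelium and endothelium. In the adult lung these ligands are known as mitogens and survival signals for alveolar and airway epithelium.

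The EGF family ligands share a fold held together by cysteines, and the coding bases of that stretch are shown because they separate the EGFR ligands of the set from the neuregulin. In the longest reading frame of each gene, the pattern of 6 cysteine codons typical of this fold was found in 4 of the 9 members, Hbegf, Ereg, Tgfa and Nrg1, and not in Hgf or the receptors. The sequences are from the GENCODE M21 transcripts (GRCm38), given 5′ to 3′ on the coding strand, with the cysteine codons in capitals.
Ereg: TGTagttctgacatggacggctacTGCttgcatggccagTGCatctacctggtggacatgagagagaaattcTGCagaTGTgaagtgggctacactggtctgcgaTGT
Tgfa: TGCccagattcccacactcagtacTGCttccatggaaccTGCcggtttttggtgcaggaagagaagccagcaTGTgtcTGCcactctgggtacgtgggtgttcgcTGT
Nrg1: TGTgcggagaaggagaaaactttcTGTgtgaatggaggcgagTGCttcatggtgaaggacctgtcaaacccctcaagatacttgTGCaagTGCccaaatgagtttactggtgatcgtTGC
The Ereg stretch lies on chromosome 5 (bases 181 to 288 of the reading frame), that of Tgfa on chromosome 6 (136 to 243) and that of Nrg1 on chromosome 8 (709 to 828). Ereg and Tgfa are both 108 bases long, have the same cysteine spacing as Hbegf, with 7, 4, 10, 1 and 8 codons between neighbours, and are identical at 49 of the 108 positions (45.4%). Nrg1 is longer, at 120 bases, with 5 and 13 codons where the others have 4 and 10.

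The deposited values are log2 signals, a scale inferred from the values. Whether they are per unit of length is not given in the sources used here, so levels are compared between libraries and not between genes. Many genes share the bottom value of a library, from 310 genes (2.09%) in Pdgfra replicate 2 to 2728 (18.4%) in Negative replicate 2, with 2228 (15%) in Axin2:Pdgfra replicate 2, and a gene at that value is called listed at the lowest value. Pdgfra, the gene of the EGFP reporter, was at 14.91 and 15.21 in Axin2:Pdgfra, 13.49 and 13 in Axin2, 14.64 and 14.92 in Pdgfra, 16.05 and 16.25 in Wnt2 and 12 and 13.34 in Negative cells. The transcripts Axin2 and Wnt2 did not follow their labels: Axin2 was between 9.54 and 12.04 in the groups with the Axin2 label and between 10.07 and 11.38 in the others, and Wnt2 was at 9.67 and 10.04 in Wnt2 cells, within the range of 7.68 to 10.82 elsewhere. Xist was at 16.68 or more in 8 libraries and at 7.81 and 8.57 in Wnt2 replicate 2 and Negative replicate 2. The other Wnt2 and Negative libraries had it at 17.04 and 17.72, so replicate and Xist level cannot be told apart within these groups. By the summed level of marker lists, epithelial and erythroid transcripts were highest in Negative cells. Mural transcripts, those of pericytes and vascular smooth muscle, were highest in Axin2 cells by the same measure. Not every gene of these lists followed that order. A lower level in such bulk samples can come from fewer cells of a type or from less RNA per cell, and these cannot be told apart.

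The tests took in 14177 genes, those with 2 or more libraries at a log2 value of 6 or above, and 8 of the 9 members were among them. Ereg reached that value in 1 library and was not tested. Erbb3 reached it in 7 libraries and Nrg1 in 6. Of the 8 members, Hbegf and Erbb3 differed among the 5 lineages (limma F-test, Benjamini-Hochberg (BH) adjusted p = 0.00609 and 0.00632), 2 of 8 beside 8.2% of all genes tested. The adjusted p of the other 6 was 0.221 for Hgf, 0.275 for Egfr and 0.445 to 0.498 for Tgfa, Nrg1, Met and Erbb2. In pairwise comparisons the members called were again Hbegf and Erbb3, in 3 comparisons. Both were lower in Axin2:Pdgfra than in Axin2 cells (2 of 8 members, beside 2.3% of all genes called and 1.38% called lower). Both were lower in Axin2:Pdgfra than in Negative cells (2 of 8, beside 6.72% called and 3.39% lower). Both were also lower in Wnt2 than in Negative cells (2 of 8, beside 5.81% called and 2.79% lower). In the remaining 7 comparisons no member passed in limma. There, members and genes under an unadjusted p of 0.05 were counted, out of 8 and 14177. These counts were 2 and 1801 for Axin2:Pdgfra against Pdgfra and 1 and 2332 for Axin2 against Pdgfra. Against Negative cells they were 2 and 2012 for Axin2 and 1 and 2497 for Pdgfra. For Wnt2 they were 2 and 1875 against Axin2:Pdgfra, 3 and 2499 against Axin2 and 1 and 1085 against Pdgfra. After adjustment, the shares of all genes called were, in the same order, 0.0423%, 2.26%, 0.6%, 2.91%, 0.635%, 4.05% and 0.367%. The median difference of the 8 members from Negative cells was -0.06 for Axin2:Pdgfra, -0.56 for Axin2, -0.19 for Pdgfra and -1.7 for Wnt2 cells, beside 0.08, 0.08, 0.03 and 0.12 over all genes tested.

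**Figure D1:**
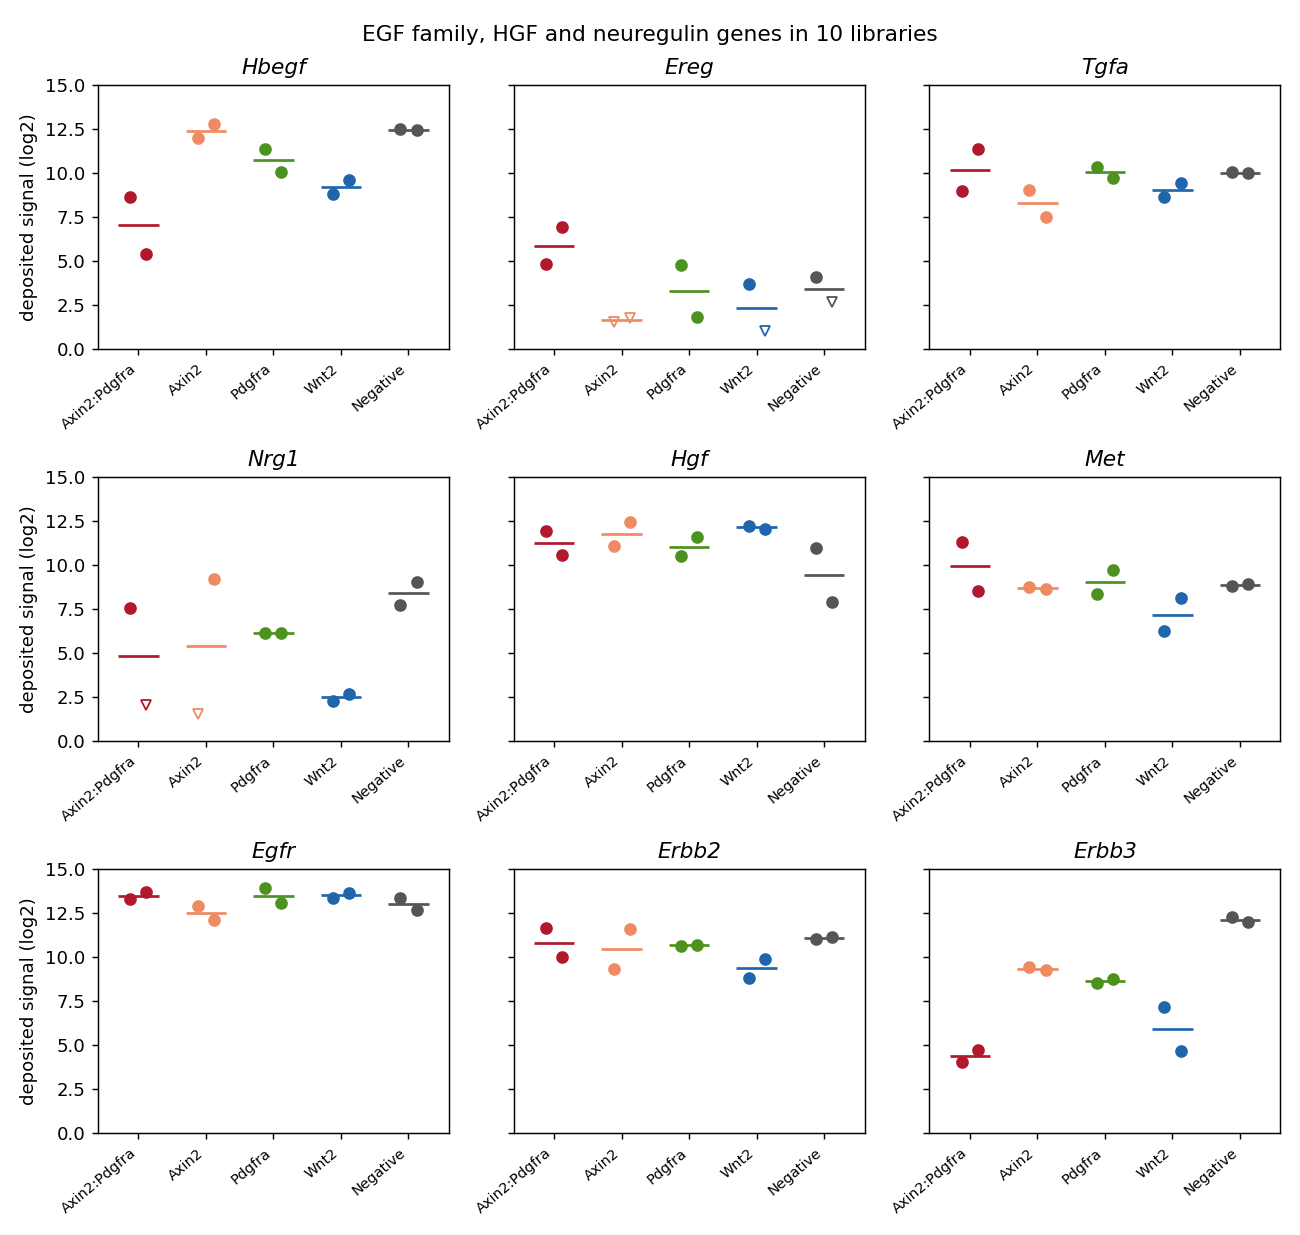
Deposited log2 signal (y axis) of the 9 genes in each lineage (x axis). Circles are libraries, open triangles are libraries in which the gene is listed at the lowest value, and bars are means of 2 libraries. Hbegf and Erbb3 are lowest in Axin2:Pdgfra cells, at means of 7.03 and 4.39, and highest in Negative cells, at 12.46 and 12.13.

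Among the EGFR ligands, Hbegf (heparin-binding EGF-like growth factor), whose transcript is also a known immediate early response gene, was the one that differed. It was at 8.66 and 5.41 in Axin2:Pdgfra cells, 11.98 and 12.79 in Axin2, 11.38 and 10.04 in Pdgfra, 8.83 and 9.57 in Wnt2 and 12.47 and 12.44 in Negative cells. Both Axin2:Pdgfra libraries lay below every other library, with a spread of their own that was the widest of any group (mean 7.03 ± 2.3, SD, n = 2). The value of 5.41 is near the bottom of the measured range of Axin2:Pdgfra replicate 2, where the lowest value is 2.06 and the next 4.74. The order of the means was Negative, Axin2, Pdgfra, Wnt2, Axin2:Pdgfra, and the libraries of Negative and Axin2 overlapped. Relative to Axin2 cells, Hbegf in Axin2:Pdgfra cells differed by -5.35 ± 0.91 on the log2 scale (SE; 95% interval -7.3 to -3.41; adjusted p = 0.00653 in limma). Against Negative cells the difference was -5.42 ± 0.91 in Axin2:Pdgfra (adjusted p = 0.00245; -7.36 to -3.48) and -3.26 ± 0.91 in Wnt2 cells (0.0495; -5.2 to -1.32). Without Axin2:Pdgfra replicate 2, the lowest library, the differences were -3.73 from Axin2 and -3.8 from Negative cells, and without Axin2:Pdgfra replicate 1 they were -6.98 and -7.05, all with adjusted p under 0.05. The call against Axin2 ended without Axin2 replicate 2 (difference -4.95, adjusted p = 0.123). Without trend and robust moderation, the Hbegf calls ended, with adjusted p of 0.1 for Axin2:Pdgfra against Axin2, 0.0512 for Axin2:Pdgfra against Negative, 0.176 for Wnt2 against Negative and 0.109 in the F-test. The Wnt2 call, just under the threshold, ended in 8 of the 10 fits that leave out a library (adjusted p up to 0.315).

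Further differences of Hbegf fell short after adjustment. Axin2:Pdgfra cells were at -3.68 ± 0.91 relative to Pdgfra cells (limma, adjusted p = 0.138), with libraries that did not overlap, and Wnt2 cells at -3.19 ± 0.91 relative to Axin2 cells (0.0651). Whether the difference that goes with the Pdgfra label depends on the Axin2 label was tested as an interaction, in which the difference of Pdgfra from Negative cells is taken from that of Axin2:Pdgfra from Axin2 cells. For Hbegf it was -3.61 ± 1.28 (adjusted p = 0.44; 95% interval -6.35 to -0.87). Of the 8 members, 0 passed this test (limma; 1 at an unadjusted p under 0.05), beside 0% of all genes (1296 at an unadjusted p under 0.05).

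Transcripts of mural, endothelial, epithelial and other cells were lower together with Hbegf in some comparisons and not in others. The summed log2 level of 18 mural genes was 15.16 to 15.91 in Axin2:Pdgfra, 19.03 to 19.23 in Axin2, 15.47 to 15.51 in Pdgfra, 14.56 to 14.73 in Wnt2 and 16.97 to 18.11 in Negative libraries, and none of the 18 was listed at the lowest value in any library. Of these 18 genes, 14 were lower in Axin2:Pdgfra than in Axin2 cells (limma, adjusted p under 0.05; 0 higher, median -4.06), 9 were lower and 1 higher in Axin2:Pdgfra than in Negative cells (median -2.47), and 12 were lower in Wnt2 than in Negative cells (0 higher, median -2.9). Axin2:Pdgfra and Pdgfra cells had like mural levels, beside Hbegf means of 7.03 ± 2.3 in Axin2:Pdgfra and 10.71 ± 0.95 in Pdgfra cells (SD, n = 2). The summed level of 14 endothelial genes was 14.65 to 14.7 in Axin2:Pdgfra, 15.68 to 15.74 in Axin2, 16.37 to 16.42 in Pdgfra, 14.95 to 15.15 in Wnt2 and 16.08 to 17.26 in Negative libraries, lowest in the same 2 groups as Hbegf, and none of the 14 was at a library's lowest value. Of the 14, 2 were lower in Axin2:Pdgfra than in Axin2 cells, 7 lower in Axin2:Pdgfra than in Negative cells and 2 lower in Wnt2 than in Negative cells, with 0 higher in each. Epithelial genes, given with Erbb3, were lower than in Negative cells in both groups too. For 7 mesothelial genes the medians were -4.69 in Axin2:Pdgfra minus Axin2, -3.87 in Axin2:Pdgfra minus Negative and -4.79 in Wnt2 minus Negative. Of the 7, 2, 2 and 5 were called lower and 0, 1 and 0 higher. In the same order, medians of 14 immune genes were -2.22, -2.96 and -1.82, with 0, 1 and 1 called lower and 0 higher. Those of 16 fibroblast genes went the other way, at 1.34, 2.43 and 1.28. The part of any of these cell types in the Hbegf differences was not tested. The summed level of 23 genes of tissue dissociation and the immediate early response was 19.06 to 19.21 in Axin2:Pdgfra, 18.21 to 18.23 in Axin2, 19.13 to 19.21 in Pdgfra, 18.3 to 18.58 in Wnt2 and 18.03 to 18.19 in Negative libraries. This summed level was alike in Axin2:Pdgfra and Pdgfra cells, and in Wnt2 cells it was nearer to that of Axin2 cells. The part of dissociation and the immediate early response in the Hbegf differences was not tested. Of the 23 genes, 5 were higher in Axin2:Pdgfra cells when set against Axin2 cells and 8 when set against Negative cells, with 0 lower in either, and 2 were higher and 1 lower in Wnt2 than in Negative cells.

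**Figure D2:**
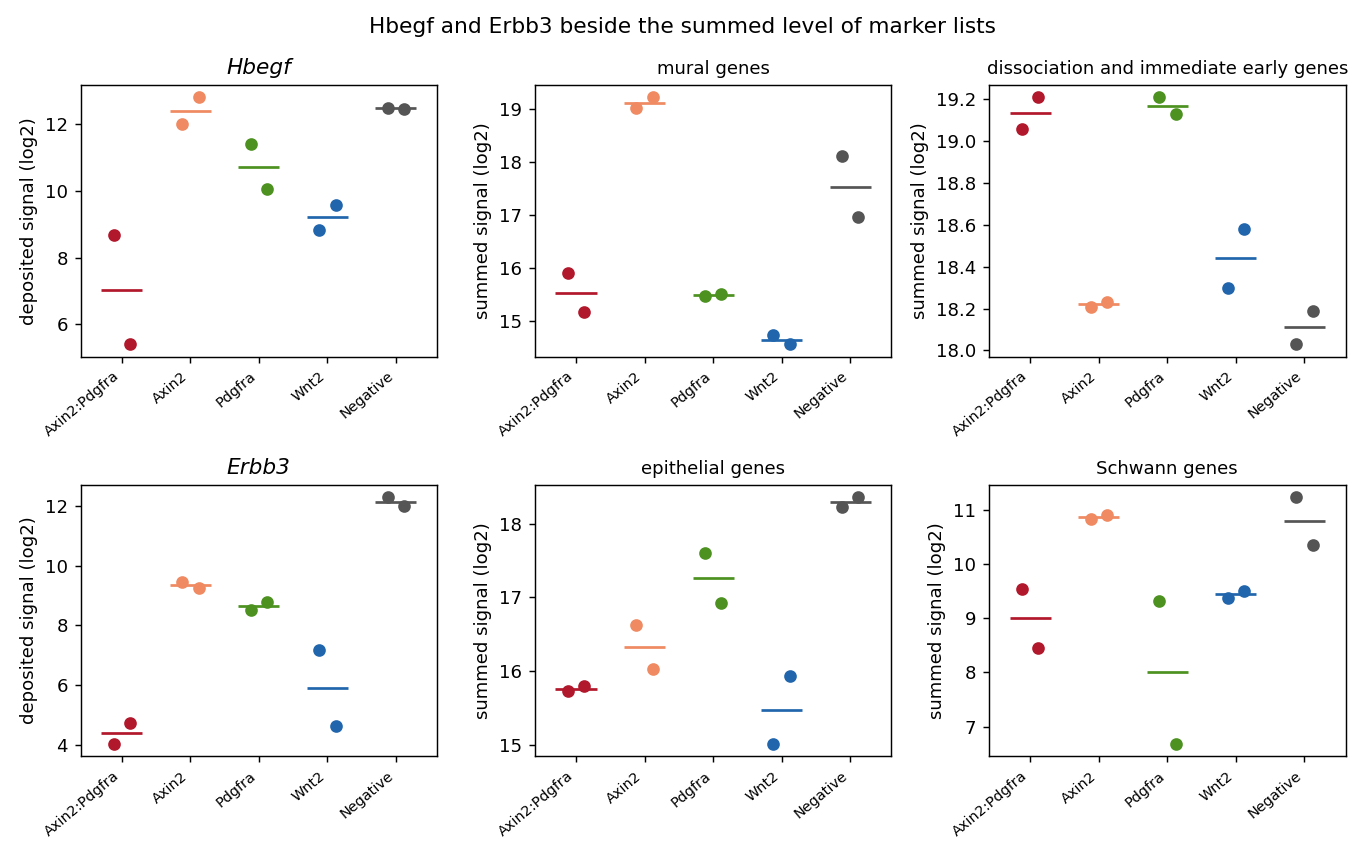
Log2 signal of Hbegf and Erbb3 in each library (left) beside the log2 of the summed signal of 18 mural, 23 dissociation and immediate early, 20 epithelial and 5 Schwann cell genes, by lineage (x axis). Points are libraries and bars are means of 2. In Axin2:Pdgfra libraries Hbegf is lowest while dissociation genes are at 19.06 and 19.21, and Erbb3 is highest in Negative cells, where epithelial genes are at 18.23 and 18.36.

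The other EGFR ligands of the set showed no called difference. Tgfa (transforming growth factor alpha) was at 8.97 and 11.36 in Axin2:Pdgfra, 9.03 and 7.51 in Axin2, 10.35 and 9.74 in Pdgfra, 8.66 and 9.44 in Wnt2 and 10.04 and 10 in Negative cells. The Axin2:Pdgfra libraries held the highest Tgfa value and lay on both sides of the Negative and Pdgfra libraries, and Axin2 had the lowest mean, 8.27 ± 1.07 (SD, n = 2). Ereg (epiregulin) was near the bottom of the scale throughout. It was at 4.83 and 6.9 in Axin2:Pdgfra and at 4.75 and 1.79 in Pdgfra cells. Both Axin2 libraries, Wnt2 replicate 2 and Negative replicate 2 had Ereg at their lowest value, beside 3.7 in Wnt2 replicate 1 and 4.11 in Negative replicate 0. The highest Ereg value was thus in Axin2:Pdgfra replicate 2, but no fold is given against libraries at their lowest value.

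Nrg1, a neuregulin that signals through ERBB3 and ERBB4, varied most within groups. It was at 7.56 and, at the lowest value, 2.06 in Axin2:Pdgfra cells, at 1.55 (the lowest value) and 9.23 in Axin2, at 6.12 and 6.14 in Pdgfra, 2.29 and 2.7 in Wnt2 and 7.75 and 9.03 in Negative cells. The mean SD within groups was 2.11, against a span of 5.89 between the group means. Wnt2 cells were at -5.89 ± 2.42 relative to Negative cells, with libraries that did not overlap, and did not pass (limma, adjusted p = 0.18; 95% interval -11.07 to -0.72). The neuregulins outside the set that were tested, Nrg2 and Nrg4, did not pass the F-test either. Nrg4 was at 7.24 and 8.92 in Axin2 cells and at 5.08 or less in the other 8 libraries, with both Axin2:Pdgfra and both Negative libraries at the lowest value.

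Hgf, the ligand of MET, was detected in each library. It was at 11.92 and 10.59 in Axin2:Pdgfra, 11.11 and 12.45 in Axin2, 10.49 and 11.58 in Pdgfra, 12.23 and 12.06 in Wnt2 and 10.97 and 7.92 in Negative cells. The groups with a label overlapped among themselves, apart from Wnt2 lying above Axin2:Pdgfra and Pdgfra, and Negative had the lowest mean, 9.45 ± 2.16 (SD, n = 2). Hgf in Wnt2 cells differed from Negative cells by 2.7 ± 0.85 (limma, adjusted p = 0.0825; 95% interval 0.88 to 4.52) and in Axin2 cells by 2.33 ± 0.85 (0.217; 0.51 to 4.15). With both Negative libraries in the fit, no Hgf difference from Negative cells passed, and the size of the differences depended on which Negative library was kept. Without Negative replicate 0 the differences of Axin2:Pdgfra, Axin2, Pdgfra and Wnt2 from Negative were 3.33, 3.86, 3.11 and 4.22 and all passed (adjusted p = 0.0189, 0.0186, 0.0386 and 0.00645). Without Negative replicate 2 they were 0.29, 0.81, 0.07 and 1.17, and the adjusted p was 0.434 to 0.979. Negative replicate 2 is the library with the most genes at the lowest value, 18.4%, and with a low Xist level, and whether either bears on its Hgf level was not tested.

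Met, the HGF receptor, was at 11.31 and 8.55 in Axin2:Pdgfra, 8.76 and 8.66 in Axin2, 8.38 and 9.71 in Pdgfra, 6.24 and 8.11 in Wnt2 and 8.8 and 8.94 in Negative cells. Both Wnt2 libraries lay below the other 8. The difference of Wnt2 from Axin2:Pdgfra was -2.75 ± 1.14 and did not pass (limma, adjusted p = 0.316; 95% interval -5.19 to -0.32). Hgf thus had its highest and Met its lowest group mean in Wnt2 cells, neither with a call.

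Among the ErbB receptors, Egfr had the narrowest range. It was at 13.31 and 13.7 in Axin2:Pdgfra, 12.91 and 12.12 in Axin2, 13.94 and 13.07 in Pdgfra, 13.37 and 13.65 in Wnt2 and 13.34 and 12.71 in Negative cells. Its 10 values spanned 1.82 log2 units and its group means 1. Axin2 cells had the lowest mean, and Egfr there differed by 0.99 to 1 from Axin2:Pdgfra, Pdgfra and Wnt2 cells. The differences were 0.99 ± 0.39 for Axin2:Pdgfra minus Axin2 (limma, adjusted p = 0.252), -0.99 ± 0.39 for Axin2 minus Pdgfra (0.221) and 1 ± 0.39 for Wnt2 minus Axin2 (0.193), none of them called. An antisense gene, Egfros, overlaps Egfr and is counted separately. The counting is not stated to use strand, so reads of the pair cannot be told apart, and the same holds for Erbb2 and Mien1.

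Erbb2, the shared partner receptor, was at 11.65 and 10.01 in Axin2:Pdgfra, 9.35 and 11.61 in Axin2, 10.63 and 10.72 in Pdgfra, 8.84 and 9.92 in Wnt2 and 11.04 and 11.15 in Negative cells. The Axin2:Pdgfra and Axin2 libraries were the most spread. Wnt2 had the lowest mean, -1.71 ± 0.8 relative to Negative cells, which did not pass (limma, adjusted p = 0.239; 95% interval -3.42 to -0.01).

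Erbb3, the neuregulin receptor with weak kinase activity, had the widest span between group means of the 9 members, 7.74 log2 units, with a mean SD within groups of 0.57. It was at 4.04 and 4.74 in Axin2:Pdgfra, 9.46 and 9.25 in Axin2, 8.52 and 8.78 in Pdgfra, 7.18 and 4.65 in Wnt2 and 12.29 and 11.98 in Negative cells. Negative cells lay above all other libraries, Axin2 above Pdgfra, and Pdgfra above both Wnt2 and Axin2:Pdgfra, whose libraries overlapped. Axin2 and Pdgfra, the neighbours in the middle, differed by 0.7 ± 1.2 (limma, adjusted p = 0.808; 95% interval -1.87 to 3.28). In Axin2:Pdgfra replicate 2 the value 4.74 is the next above the lowest, so that Erbb3 was at the bottom of the measured range there. Relative to Negative cells Erbb3 was lower in Axin2:Pdgfra cells, with a difference of -7.74 ± 1.2 (95% interval -10.31 to -5.17; limma, adjusted p = 0.00159), and in Wnt2 cells, with a difference of -6.22 ± 1.2 (-8.79 to -3.65; 0.00763). The call in Axin2:Pdgfra held in all 20 alternative fits, with differences of -8.25 to -6.58. The call in Wnt2 ended without Wnt2 replicate 2 (-4.96, adjusted p = 0.0941) and the difference was -7.48 without Wnt2 replicate 1 (0.0214).

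The third call of Erbb3, Axin2:Pdgfra minus Axin2, was marginal. The difference was -4.97 ± 1.2 (limma, adjusted p = 0.0471; 95% interval -7.54 to -2.39). It held in 1 of the 10 fits that leave out a library, the one without Wnt2 replicate 2, with differences of -5.32 to -4.61 and adjusted p up to 0.239. The differences of Axin2 and Pdgfra cells from Negative cells, -2.77 ± 1.2 and -3.48 ± 1.2, did not pass (adjusted p = 0.312 and 0.147), although the libraries did not overlap.

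Transcripts of epithelium, where Erbb3 is known to be expressed, were called lower with it in the comparisons against Negative cells. In Axin2:Pdgfra against Axin2 cells they were slightly lower, without a call. The summed log2 level of 20 epithelial genes was 15.73 to 15.79 in Axin2:Pdgfra, 16.03 to 16.63 in Axin2, 16.92 to 17.6 in Pdgfra, 15.01 to 15.93 in Wnt2 and 18.23 to 18.36 in Negative libraries. Of the 20 genes, 14 were lower in Axin2:Pdgfra and 13 lower in Wnt2 than in Negative cells, 0 were higher in either, and the medians were -3.54 and -3.45 (limma, adjusted p under 0.05). Between Axin2:Pdgfra and Axin2 cells, where Erbb3 was also called lower, 0 of the 20 passed in either direction. The median there was -0.61, beside 0.02 over all genes tested, and the summed levels of the libraries did not overlap. At most 1 of the 20 was listed at the lowest value in any library. E-cadherin, Cdh1, was at 10.07 and 7.4 in Axin2:Pdgfra, 11.29 and 10.57 in Axin2, 11.68 and 11.07 in Pdgfra, 8.61 and 10.21 in Wnt2 and 14.82 and 13.66 in Negative cells. Epcam, another epithelial surface protein, did not pass the F-test (limma, adjusted p = 0.41), with 10.06 and 4.74 in Axin2:Pdgfra, 5.7 and 3.3 in Axin2, 1.55 (the lowest value) and 6.33 in Pdgfra, 4.07 and 7.16 in Wnt2 and 8.77 and 8.88 in Negative cells, so its highest value was in an Axin2:Pdgfra library. Both genes were named after their values were seen. The order was not the same throughout, since Pdgfra cells had more epithelial signal than Axin2 cells and lower Erbb3 values. Sox10, a transcription factor of Schwann cells, which also use ERBB3, was at 8.48 and 8.79 in Axin2 and 9.38 and 8.45 in Negative cells. Both Axin2:Pdgfra libraries had it at their lowest value. The same held for both Pdgfra libraries and Wnt2 replicate 1, and Wnt2 replicate 2 had Sox10 at 1.75. Of the 5 Schwann cell genes measured, Sox10 was the 1 that passed the F-test. Others had another pattern, such as S100b. It was at 7.21 and, at the lowest value, 2.06 in Axin2:Pdgfra cells, and the 2 Negative libraries had it at their lowest value. The summed level of the 5 Schwann cell genes was 8.46 to 9.55 in Axin2:Pdgfra, 10.84 to 10.91 in Axin2, 6.68 to 9.32 in Pdgfra, 9.37 to 9.51 in Wnt2 and 10.36 to 11.24 in Negative libraries. The part of epithelial and Schwann cells in the Erbb3 differences was not tested.

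**Figure D3:**
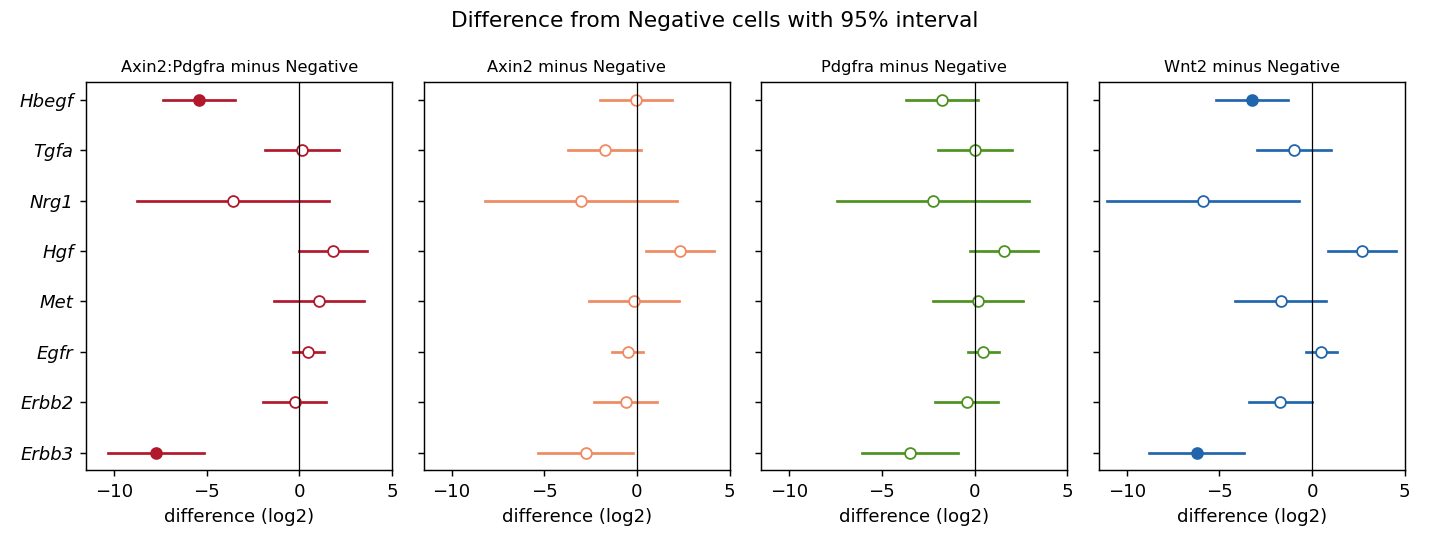
Difference of each lineage from Negative cells (x axis, log2) for the 8 tested genes (rows), with 95% intervals from limma. Filled points passed at an adjusted p under 0.05. Hbegf and Erbb3 are filled for Axin2:Pdgfra (-5.42 and -7.74) and Wnt2 (-3.26 and -6.22), and no point is filled for Axin2 or Pdgfra.

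The genes whose pattern over the 10 libraries was nearest to these members were ranked by the root mean square difference of centred log2 values, as a description. Nearest to Hbegf were Specc1 (0.65 log2 units), Nid2, a basement membrane protein (0.71), and Slc12a7, a potassium-chloride cotransporter (0.73). Nearest to Erbb3 were Scnn1b, a subunit of the epithelial sodium channel (0.82), Tmem37 (0.95) and Spint1 (1.03). Spint1 was also among the pathway genes, described next.

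Around the members, 5 lists of the pathway were examined, chosen, like the members, with results of these data in view. Over all genes 8.2% passed the F-test, and 3395 of 14177 had an unadjusted p under 0.05. Of 11 genes of ligand shedding, such as Adam10 and Adam17, and of 12 genes of receptor feedback, such as Errfi1 and the Sprouty genes, 0 passed the F-test in limma (0 and 4 at an unadjusted p under 0.05). Of 11 adaptors and signal relays 2 passed, and of 10 tested ERK response genes 3. In the list of HGF and its relatives 1 of 10 passed. The gene was Spint1, an inhibitor of the proteases that activate HGF (adjusted p = 0.00546). Spint1 was at the library's lowest value in the 2 Axin2:Pdgfra libraries and averaged 8.81 ± 0.52 in Axin2, 8.31 ± 0.91 in Pdgfra, 3.53 ± 2.08 in Wnt2 and 11.52 ± 0.33 in Negative cells (SD, n = 2). Wnt2 cells differed from Negative cells by -7.99 ± 1.55 in Spint1 (limma, adjusted p = 0.00776). Spint1 was also called lower in Axin2:Pdgfra than in Axin2 and in Negative cells (limma, adjusted p = 0.0332 and 0.002). No fold is given there, since the Axin2:Pdgfra libraries are at their lowest value. Spint1 is, like Erbb3, known from epithelium, and the epithelial levels given above hold beside it too. Between Axin2:Pdgfra and Axin2 cells 0 of 20 epithelial genes were called. The part of epithelial cells in the Spint1 differences was not tested.

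Downstream of the receptors, Cblb and Gab1 passed the F-test. Cblb, a ubiquitin ligase that helps to remove activated receptors, averaged 13.56 ± 0.02 in Axin2:Pdgfra cells, 11.47 ± 0.96 in Axin2, 14.13 ± 0.22 in Pdgfra, 14.38 ± 0.06 in Wnt2 and 12.66 ± 0.33 in Negative cells. Relative to Axin2 cells it was 2.08 ± 0.4 higher in Axin2:Pdgfra (limma, adjusted p = 0.014) and 2.9 ± 0.4 higher in Wnt2 cells (0.000927), and Axin2 minus Pdgfra was -2.65 ± 0.4 (0.00404). Gab1, a docking protein of MET and EGFR, was higher in Axin2 than in Pdgfra cells by 1.55 ± 0.38 (0.0473), at 13.78 ± 0.47 in Axin2 and 12.24 ± 0.64 in Pdgfra cells. It averaged 12.66 ± 0.12 in Axin2:Pdgfra, 12.41 ± 0.15 in Wnt2 and 13.67 ± 0.04 in Negative cells, and the Axin2 and Negative libraries overlapped (difference 0.11 ± 0.38, adjusted p = 0.936).

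The ERK response genes that passed did not move together. Egr1, an immediate early transcription factor that is also on the dissociation list, averaged 16.79 ± 0.07 in Axin2:Pdgfra cells, 15.71 ± 0.08 in Axin2, 16.74 ± 0 in Pdgfra, 16.11 ± 0.15 in Wnt2 and 15.33 ± 0.36 in Negative cells. Ier3, another early response gene, was lower in Wnt2 than in Negative cells, with a difference of -2.15 ± 0.42 (limma, adjusted p = 0.00847), at 11.81 ± 0.77 in Wnt2 and 13.95 ± 0.02 in Negative cells. Ccnd1, cyclin D1, was lower in Axin2 than in Pdgfra cells, with a difference of -3.45 ± 0.77 (adjusted p = 0.0322), at 8.76 ± 0.8 in Axin2 and 12.21 ± 0.38 in Pdgfra cells. Egr1 was higher in Axin2:Pdgfra than in Negative cells by 1.46 ± 0.19 (0.000494) and in Pdgfra than in Negative cells by 1.41 ± 0.19 (0.00161). Without trend and robust moderation, the F-test calls of Cblb and Egr1 ended (adjusted p = 0.125 and 0.277). Those of Gab1, Ier3 and Ccnd1 ended there too (0.284, 0.273 and 0.193), and that of Spint1 held (0.0311). The F-test calls of Gab1, Ier3 and Ccnd1 held in 9, 9 and 13 of the 20 alternative fits.

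**Figure D4:**
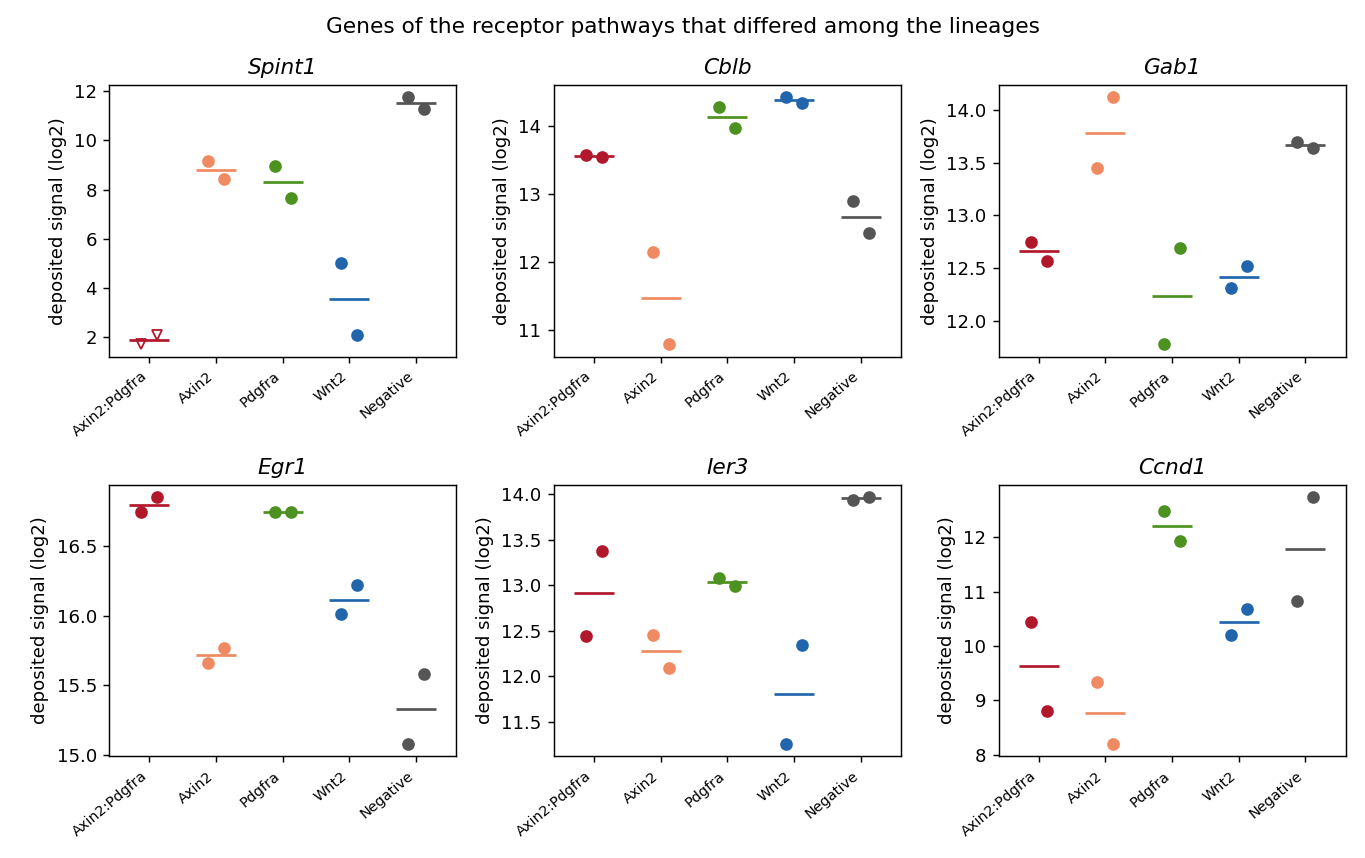
Log2 signal (y axis) by lineage (x axis) of the 6 pathway genes that passed the F-test. Points are libraries, open triangles are libraries in which the gene is listed at the lowest value, and bars are means of 2. Cblb is lowest in Axin2 cells at 11.47, and Spint1 is highest in Negative cells at 11.52.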

How the data were processed

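The deposited tables hold one log2 value per Ensembl gene and library. The submitters' processing notes name STAR, limma and the mouse build mm9; no source used here gives their versions, the annotation, the counter or what limma did. The log2 scale was inferred from the values. The 10 tables have medians of 9.1 to 9.11 and the same highest value, 19.25, as quantile normalization leaves them. They hold no counts, so depth is unknown and no counting interval is given.

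Symbols were matched to 14720 of 14854 identifiers. All 10 libraries entered a single model with a mean per group and no covariate (5 residual degrees of freedom), fitted with limma 3.58.1 in R 4.3.3 (trend and robust, two-sided, BH adjustment over the 14177 genes tested within each comparison, threshold 0.05). The code was tested on simulated data. Alternatives changed the filter, the moderation, library weights, the lowest values, the samples and the covariates, and left out each library in turn. Named pathway genes are at most 3 per list by smallest adjusted p in the F-test, and the like genes the 3 nearest to each member past that test. The members, lists and tests were chosen with earlier results of these data known. No coordinates are given, since the reference at hand (GRCm38) is not the build named. Genes overlapping a member were looked up in GENCODE M21.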

Additional observations from a re-analysis of the deposited data

How the results depend on the processing

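The count of members past the F-test was 2, and 1 without trend and robust moderation. The calls over all genes changed with the fit too. Of 14177 genes, 1163 passed the F-test in the main fit and 205 without that moderation. With library weights 1488 passed, with the index term 985, and with the replicate number as a term (the replicate block) 1190. Pairwise counts over all genes in the alternatives are not given here. The count for Axin2:Pdgfra minus Axin2 was 2, 0 without that moderation, and 1 with library weights, with the library index of the labels as a term, with a higher common floor of 5.55, or without the 2 libraries with the most genes at the lowest value. The count for Axin2:Pdgfra minus Negative and that for Wnt2 minus Negative were 2 each and 1 each without the moderation. Hbegf was the member lost in each of these fits without moderation, and Erbb3 also in Axin2:Pdgfra minus Axin2. With library weights the count for Wnt2 minus Negative was 3, with Hgf added (adjusted p = 0.0491). For Wnt2 minus Axin2 the count was 0, 2 with library weights and 1 with the index term or without those 2 libraries. The higher floor and the fit without 2 libraries were chosen after seeing the data. With a library left out, the count was 2 to 3 for the F-test, 0 to 2 for Axin2:Pdgfra minus Axin2, 2 to 3 for Axin2:Pdgfra minus Negative, 0 to 2 for Wnt2 minus Negative, and 0 to 1 for Wnt2 minus Axin2, for Axin2:Pdgfra minus Pdgfra, and for Axin2 and Pdgfra cells against Negative. With the replicate block the count for Axin2 minus Negative was 1 (Hgf, 3.97, adjusted p = 0.0282) in place of 0, and Hgf passed the F-test (0.0373). The block also gave 3 for Axin2:Pdgfra minus Negative, and in Wnt2 minus Negative it added Hgf (4.34, 0.0113) and ended the call of Hbegf (0.0869). Same-numbered libraries did not deviate together (r from -0.06 to 0.03 over 16 pairs). With 2 libraries a group, their deviations from the group mean mirror each other, so many of these pairs repeat the same r. The check therefore cannot show whether same-numbered libraries share an animal or a batch. None of the differences of members with an unadjusted p under 0.05 changed sign. Other differences of members, and pairwise differences of pathway genes, were not compared across alternatives. The causes were not tested. With 2 libraries a group and an unknown depth, a missed threshold does not show equal levels.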
